A study of Fagopyrum tataricum with 9 samples.

Results

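Transcripts of 6 abundant seed storage globulin genes were followed through seed development in Tartary buckwheat (Fagopyrum tataricum). The members were taken by gene ID, 6 of 33931 genes in the deposited count table: 3 genes best matching a 13S globulin, 1 matching an 11S globulin, 1 matching legumin B and 1 matching a vicilin-like antimicrobial peptide precursor. RNA was sequenced from seeds of MIQIAO 1, a variety whose hull comes off easily, with 3 libraries from each of 3 stages: green fruit (13 days post anthesis, dpa), discoloration (19 dpa) and initial maturity (25 dpa). The labels list the 3 days but do not tie each to a stage name, so days were matched to stages in developmental order. All plants were field-grown and of this 1 variety, with no treatment, and the labels name 3 plants as the source of the replicates of every stage.

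Storage globulins are the protein reserve that a seedling breaks down for nitrogen and carbon after germination. Legumin-type globulins (11S, in buckwheat called 13S) are made on the rough endoplasmic reticulum as single-chain precursors, pass to the protein storage vacuole and are cut there by vacuolar processing enzyme into an acidic and a basic chain held by a disulfide bond. Vicilin-type globulins belong to the same cupin superfamily but lack that cut, and some vicilin precursors, first described in macadamia, also release small antimicrobial peptides. The 13S legumin-type globulin is the main storage protein of buckwheat grain and a known food allergen.

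The plus-strand 13S globulin 2 gene (FtPinG0000917200.01, chromosome 7, 19116283 to 19118362) and the minus-strand 13S globulin 2 gene (FtPinG0000917700.01, chromosome 7, 19064942 to 19066988) lie 49294 bases apart with 1 gene model between them. The 13S globulin 3 gene (FtPinG0000292500.01) lies on the plus strand of chromosome 1 at 4678748 to 4680718. Best matches of these 3 genes are proteins of common buckwheat, Fagopyrum esculentum. The 11S globulin 2 gene (FtPinG0009373700.01, chromosome 1, minus strand, 48210483 to 48212449) matched a sesame protein best, with an E-value of 7.77e-137. The legumin B gene (FtPinG0004859600.01, chromosome 3, plus strand, 11979732 to 11983106) matched a cotton protein, with the weakest match of the 6 (E-value 1.50e-54) and the longest gene model (2409 bases). The vicilin-like gene (FtPinG0001724500.01, chromosome 3, minus strand, 40139361 to 40141056) matched vicilin-like antimicrobial peptides 2-1 of macadamia, with an E-value of 5.15e-102 and the shortest model (1377 bases). All 6 carry the annotation nutrient reservoir activity in the deposited gene descriptions. Names are those of best protein matches, and positions are those of the deposited descriptions. Their genome build was not given in the sources used here.

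Library totals ran between 21585045 and 26777643 counts. In each stage 1 library stood apart from a close pair: green fruit library 1, discoloration library 1 and initial maturity library 2. A chi-square per degree of freedom over genes gave 254.6 and 231.6 between green fruit library 1 and its stage mates, against 2.56 within the pair. At discoloration it was 42.9 and 42.5 against 1.98, and at initial maturity 106.5 and 110.9 against 3.54. The close pairs differed by more than sampling noise and stayed separate libraries. Nothing in the labels says whether pairs shared an extraction, so p-values reflect variation among libraries that may in part be technical. Results that rest on the 3 libraries are given with and without them.

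The 6 genes together took 8.94%, 2.99% and 3.10% of all counts in green fruit libraries 1, 2 and 3. They took 25.5%, 24.3% and 24.2% in the discoloration libraries and 25.7%, 15.0% and 26.1% in the initial maturity libraries. The share was thus higher in every discoloration and initial maturity library than in any green fruit library, while initial maturity library 2 lay below the other late libraries. The stage means were 5.01 ± 3.40% in green fruit, 24.7 ± 0.72% in discoloration seeds and 22.2 ± 6.25% at initial maturity (SD, n = 3). The widest of the 95% Wilson intervals of these shares spanned 0.0364 percentage points, which covers counting error only, since sequenced reads are not independent molecules. By stage mean of FPKM (fragments scaled to the length of the gene and the size of the library), 5 of the 6 genes were among the top 25 of all genes in green fruit, and all 6 at discoloration and at initial maturity. The members were chosen as abundant genes, so these ranks in part describe that choice. In whole seeds, a larger share of storage cells and more storage RNA per cell cannot be told apart.

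**Figure D1:**
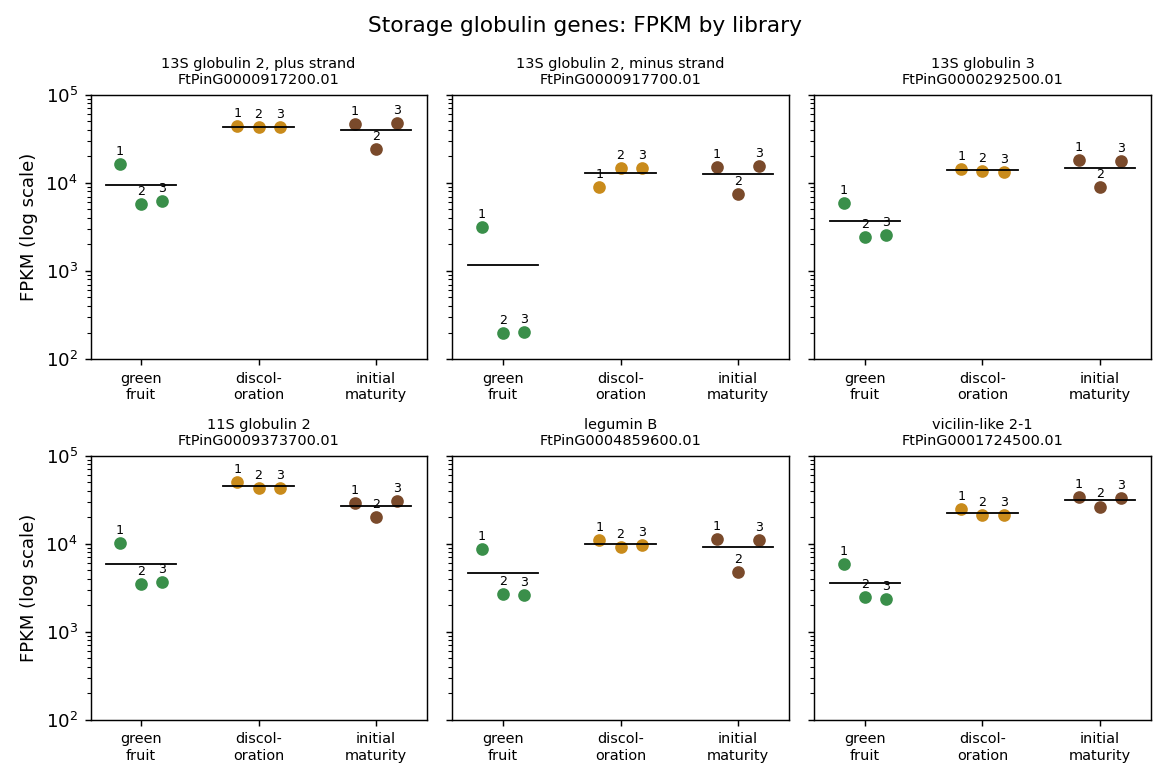
FPKM (log axis) of each of the 6 storage globulin genes in the 9 libraries, by stage; points are libraries numbered by replicate and lines are stage means. Green fruit libraries 2 and 3 lie lowest in every panel, at 197 and 200.5 FPKM for the minus-strand 13S globulin 2 gene, and initial maturity library 2 lies below its stage mates in every panel.

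The plus-strand 13S globulin 2 gene, a legumin-type precursor, had 16391, 5773 and 6230.3 FPKM in green fruit libraries 1, 2 and 3. It had 43715, 43505 and 42809 FPKM at discoloration and 46443, 24327 and 47452 FPKM at initial maturity. Discoloration libraries lay close together and above all green fruit libraries, and initial maturity library 2 lay between these stages. This gene had the highest FPKM of any gene in discoloration libraries 2 and 3 and ranked second in library 1.

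Its neighbour, the minus-strand 13S globulin 2 gene, had 3135, 197 and 200.5 FPKM in the green fruit libraries. It had 9027, 14820.1 and 14869.8 FPKM in the discoloration libraries and 14966, 7463 and 15430.0 FPKM in the initial maturity libraries. The late libraries lay above the green fruit libraries without overlap, and green fruit library 1 was far above libraries 2 and 3. In green fruit libraries 2 and 3 this gene ranked 683 and 660 among all genes by FPKM, against 23 in green fruit library 1, while its rank in the 6 later libraries ran from 12 to 26.

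The ratio of the minus-strand to the plus-strand gene separated the same libraries. It was 0.191, 0.0342 and 0.0322 in green fruit libraries 1, 2 and 3, then 0.206, 0.341 and 0.347 at discoloration and 0.322, 0.307 and 0.325 at initial maturity. The pair therefore stood near a constant ratio at initial maturity, and the libraries that stood apart in green fruit and at discoloration also held the ratios that stood apart there. How reads that match several genes were counted was not given in the sources used here, which makes the split of reads between these same-named genes uncertain.

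The 13S globulin 3 gene had 5927, 2429 and 2592 FPKM in the green fruit libraries, 14522.5, 13761 and 13218 FPKM at discoloration, and 17979, 8900.4 and 17650.5 FPKM at initial maturity. The late libraries did not overlap green fruit. A pair of further genes matching the same protein, FtPinG0000287200.01 and FtPinG0000291200.01, lie 12363 and 63594 bases away on chromosome 1, so its counts carry the same uncertainty. Of the FPKM summed over these 3 genes, the 13S globulin 3 gene held between 89.7% and 95.3% in every library.

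The 11S globulin 2 gene had 10249, 3469 and 3678 FPKM in the green fruit libraries. It had 49458, 42347 and 42278 FPKM in the discoloration libraries and 28919, 20146 and 30676 FPKM in the initial maturity libraries. On the FPKM scale its 3 stages did not overlap, and discoloration was highest. It ranked first of all genes by stage mean FPKM at discoloration, against a rank of 8 in green fruit and 6 at initial maturity.

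The legumin B gene had 8649.7, 2679 and 2595 FPKM in green fruit, 11017.5, 9256 and 9543 FPKM at discoloration, and 11233, 4777 and 11128 FPKM at initial maturity. Green fruit library 1 lay above initial maturity library 2, so these stages overlapped, and it lay just below the lowest discoloration library. By stage mean this gene ranked 9 of all genes in green fruit, 18 in discoloration seeds and 23 at initial maturity.

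The vicilin-like gene had 5894, 2463 and 2355 FPKM in the green fruit libraries. It had 24505, 21094 and 21297 FPKM in the discoloration libraries and 33439, 26396 and 33066 FPKM in the initial maturity libraries. Its 3 stages did not overlap and followed each other upward, including initial maturity library 2. Its rank by stage mean FPKM was 17 in green fruit, 7 in discoloration seeds and 5 at initial maturity.

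Per length, the order of the genes changed with the stage. In green fruit the plus-strand 13S globulin 2 gene was first (9465 ± 6003 FPKM, SD, n = 3), then the 11S globulin 2 gene (5799 ± 3855 FPKM) and the legumin B gene (4641 ± 3472 FPKM), in that order in every library. The 13S globulin 3 gene (3649 ± 1974 FPKM) and the vicilin-like gene (3571 ± 2013 FPKM) changed places between green fruit libraries, and the minus-strand 13S globulin 2 gene was lowest in each. At discoloration the 11S globulin 2 gene (44694 ± 4126 FPKM) and the plus-strand 13S globulin 2 gene (43343 ± 474 FPKM) differed by less than their spread and also changed places between libraries.

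At initial maturity the plus-strand 13S globulin 2 gene had a stage mean of 39407 ± 13070.0 FPKM, above the vicilin-like gene (30967 ± 3963 FPKM) and the 11S globulin 2 gene (26580.0 ± 5641 FPKM). The vicilin-like gene was above the 11S globulin 2 gene in all 3 initial maturity libraries and above the plus-strand 13S globulin 2 gene only in library 2. The 13S globulin 3, minus-strand 13S globulin 2 and legumin B genes followed in that order in each initial maturity library, although their stage means overlapped within 1 SD.

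**Figure D2:**
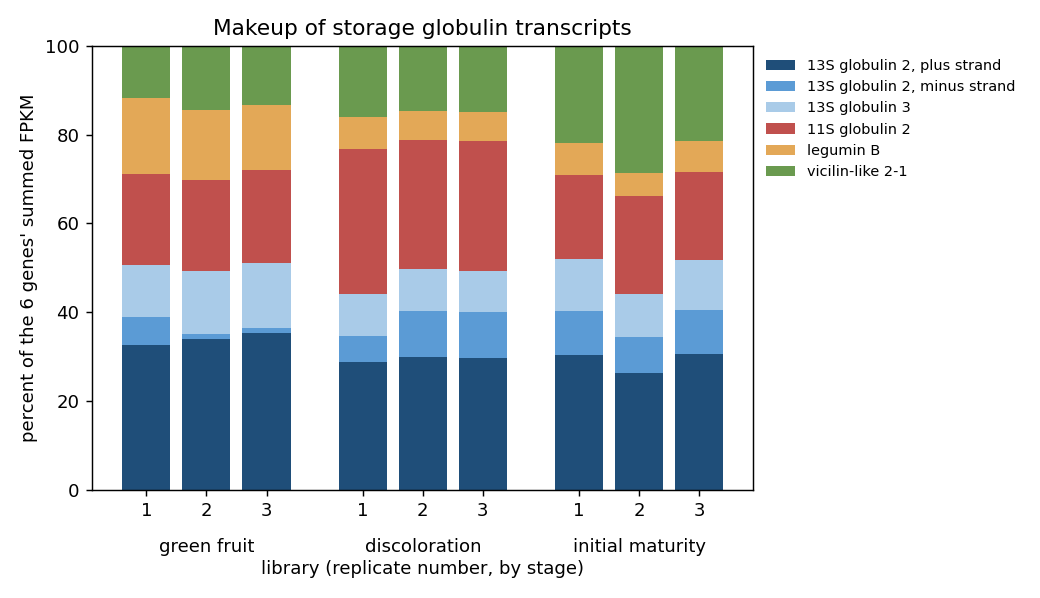
Percent of the summed FPKM of the 6 storage globulin genes that each gene held, 1 bar per library (replicate number under the bar), by stage. The 11S globulin 2 segment is widest at discoloration (30.4% on average), the vicilin-like segment at initial maturity (23.9%) and the legumin B segment in green fruit (15.9%).

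The makeup of the storage globulin transcripts needs no scaling between libraries. Of the summed FPKM of the 6 genes, the 11S globulin 2 gene held 20.5 ± 0.26% in green fruit, 30.4 ± 1.84% in discoloration seeds and 20.2 ± 1.54% at initial maturity. Its discoloration libraries (29.2% to 32.5%) lay above all libraries of the other stages (18.9% to 21.9%). The vicilin-like gene held 13.2 ± 1.38%, 15.2 ± 0.83% and 23.9 ± 4.12% over the 3 stages in order, and its lowest initial maturity library (21.3%) was above its highest discoloration library (16.1%). The legumin B gene held 15.9 ± 1.26% in green fruit, 6.75 ± 0.44% in discoloration seeds and 6.57 ± 1.19% at initial maturity, with green fruit apart from the later stages in every library.

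In percentage points the 13S genes moved less. The plus-strand 13S globulin 2 gene held 33.95 ± 1.34%, 29.5 ± 0.70% and 29.1 ± 2.32% over the 3 stages, and the 13S globulin 3 gene 13.6 ± 1.56%, 9.41 ± 0.20% and 10.9 ± 1.10%. The minus-strand gene held 2.85 ± 2.94% in green fruit, 8.83 ± 2.51% in discoloration seeds and 9.27 ± 1.01% at initial maturity, and discoloration library 1 (5.93%) lay below green fruit library 1 (6.24%). These shares add to a whole, so a larger share of 1 gene lowers the others, and they are given without a test.

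The balance of the vicilin-like gene against the legumin-type 11S gene was also read as a ratio within libraries. The vicilin-like gene had 0.575, 0.71 and 0.64 times the FPKM of the 11S globulin 2 gene in green fruit libraries 1, 2 and 3. The ratio was 0.495, 0.498 and 0.504 at discoloration and 1.16, 1.31 and 1.08 at initial maturity. Discoloration was lowest and most uniform, and initial maturity was the only stage with ratios above 1, in all 3 libraries.

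The first comparison asked which of the genes differed between discoloration and green fruit. Counts were scaled with TMM, which corrects for changes in library makeup, and tested with edgeR's quasi-likelihood test in 1 fit of all 9 libraries, with Benjamini-Hochberg adjustment over 23631 genes and a threshold of 0.05. All 6 members passed the filter on low counts, their lowest count in a library being 7422. Of the 6, 5 were higher at discoloration and none was lower, where 19.5% of all genes tested were higher and 19.9% were lower (39.5% in either direction). The members' median log2 fold change was 3.33, beside -0.04 over all genes tested.

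Discoloration exceeded green fruit most for the minus-strand 13S globulin 2 gene, by a log2 fold change of 4.27 (SE 1.26, edgeR adjusted p = 0.0241). Next came the 11S globulin 2 gene, higher by 3.86 (SE 0.95, edgeR adjusted p = 0.0112) and the vicilin-like gene by 3.56 (SE 0.83, edgeR adjusted p = 0.00846). Smaller values were found for the plus-strand 13S globulin 2 gene, higher by 3.10 (SE 0.99, edgeR adjusted p = 0.0329), and the 13S globulin 3 gene by 2.84 (SE 0.75, edgeR adjusted p = 0.0149). The legumin B gene had the smallest value, 2.0 (SE 0.80, edgeR adjusted p = 0.0726), and missed the threshold. In the authors' deposited table, whose ratios divide the earlier stage by the later, all 6 genes passed for green fruit over discoloration, with log2 ratios of -4.25 to -1.99 and an adjusted p of 2.04e-06 for legumin B. Each SE is the absolute fold change over the square root of the test's F statistic and restates that test.

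With library totals alone the median of all genes moved to -1.03, and the members' values ran from 1.10 for legumin B to 3.45 for the minus-strand 13S globulin 2 gene, with 5 members past the threshold. Of all genes 76.0% were called then, and 10.2% of those calls were higher, against 49.5% of the calls with TMM. Green fruit library 1 set much of the spread: without it all 6 genes were higher at discoloration (log2 fold changes of 3.0 to 7.09), where 51.4% of all genes were called. Without green fruit library 2 the 11S globulin 2 and vicilin-like genes alone were called (29.4% of all genes). Without green fruit library 3, 3 members were called (29.6% of all genes), and likewise 3 without discoloration library 2 or 3 (27.7% of all genes each). The plus-strand 13S globulin 2 gene kept its call in 3 of the 9 fits that each left out 1 library (those leaving out green fruit library 1, or library 2 or 3 of initial maturity), the minus-strand gene in 5 (lost without green fruit library 2 or 3 or discoloration library 2 or 3) and the 13S globulin 3 gene in 8 (lost without green fruit library 2). With the 3 libraries that stood apart left out, an option chosen after seeing the data, all 6 were higher (2.89 to 7.27) and 74.0% of all genes were called. With each close pair summed as 1 library, also chosen after seeing the data, none was called (1.74 to 3.67) and 11.7% of all genes were.

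**Figure D3:**
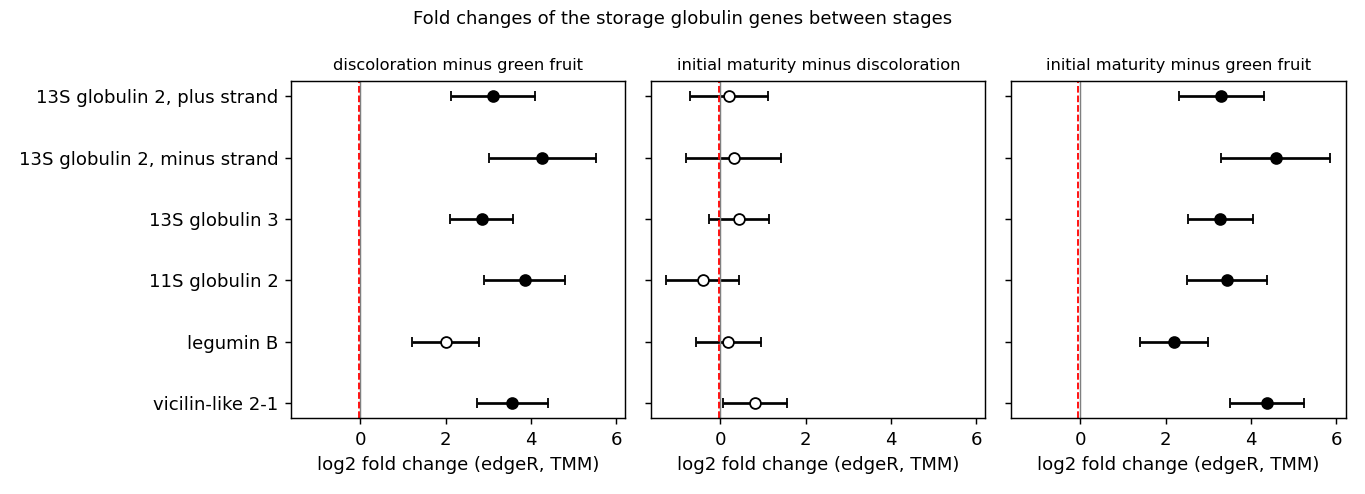
Log2 fold changes (edgeR, TMM) of the 6 storage globulin genes in the 3 comparisons of stages; bars are ± 1 SE, filled points have an adjusted p under 0.05, and the red dashed line is the median of all genes tested. Points lie between 2.0 and 4.27 for discoloration minus green fruit, between -0.41 and 0.81 for initial maturity minus discoloration, and between 2.19 and 4.58 for initial maturity minus green fruit.

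Between initial maturity and discoloration, 0 of the 6 genes passed the edgeR threshold, where 16.0% of all genes tested were higher and 20.4% were lower (36.4% in either direction). None of the 6 had an unadjusted p under 0.05, and DESeq2 called 0 of the 5 to which it gave an adjusted p (42.0% of all genes called). Log2 fold changes were 0.81 (SE 0.75) for the vicilin-like gene, 0.43 (SE 0.70) for the 13S globulin 3 gene, 0.31 (SE 1.10) for the minus-strand and 0.20 (SE 0.91) for the plus-strand 13S globulin 2 gene, 0.19 (SE 0.77) for legumin B and -0.41 (SE 0.85) for the 11S globulin 2 gene. Scaled by library totals, the plus-strand and minus-strand 13S globulin 2 genes and legumin B took the other sign (-0.14, -0.03 and -0.14), beside a median of -0.37 over all genes, and 20.8% of the calls over all genes were higher, against 43.9% with TMM.

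The libraries that stood apart weighed on this comparison. Without them all 6 genes passed, 5 higher at initial maturity (0.37 to 0.99) and the 11S globulin 2 gene lower (-0.17), where 67.6% of all genes were called. Without green fruit library 1 alone, the vicilin-like gene was the 1 member called (0.81, edgeR adjusted p = 0.0152), where 50.4% of all genes were. In the authors' deposited table the vicilin-like gene had a log2 ratio of -0.81 for discoloration over initial maturity (adjusted p = 0.00322) and the other 5 genes had adjusted p-values of 0.196 to 0.795. The difference in the summed share of counts, initial maturity minus discoloration, was -2.43 percentage points, and 1.18 points without initial maturity library 2.

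Over the whole span, initial maturity exceeded green fruit for all 6 genes by edgeR, where 28.3% of all genes tested were higher and 32.5% were lower (60.8% in either direction). The members' median was 3.37, beside -0.06 over all genes. The minus-strand 13S globulin 2 gene (log2 fold change 4.58, SE 1.28, edgeR adjusted p = 0.0118) and the vicilin-like gene (4.38, SE 0.86, edgeR adjusted p = 0.00185) had the highest values. Values of the 11S globulin 2, plus-strand 13S globulin 2 and 13S globulin 3 genes lay between 3.28 and 3.44. Legumin B again had the smallest value, 2.19 (SE 0.80, edgeR adjusted p = 0.0383). Without green fruit library 1 the values were larger, from 3.19 for legumin B to 7.40 for the minus-strand 13S globulin 2 gene, with all 6 called (68.9% of all genes). With the 3 libraries that stood apart left out they ran from 3.47 to 7.64, again with all 6 called (80.7% of all genes).

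That call for legumin B rested on all libraries being used, since it was lost when any library other than green fruit library 1 or initial maturity library 2 was left out (adjusted p = 0.0534 to 0.112), with library totals (0.96, adjusted p = 0.194), with only these 2 stages fitted (2.18, adjusted p = 0.111) and with limma on log2(FPKM + 1) (1.10, adjusted p = 0.121). Of the calls over all genes, 10.7% were higher with library totals, against 46.6% with TMM. The call of the plus-strand 13S globulin 2 gene was lost without green fruit library 2 (adjusted p = 0.0553). With close pairs summed none of the 6 was called, where 37.4% of all genes were.

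The change in the later interval was then set against that in the earlier one in the same fit. The later change minus the earlier one was negative for every member, at -1.81 (legumin B) to -4.27 (11S globulin 2) on the log2 scale, with a median of -2.83 beside -0.08 over all genes. With edgeR 0 members passed the threshold, where 20.0% of all genes did (6.58% positive and 13.4% negative). Nearest was the 11S globulin 2 gene (SE 1.41, edgeR adjusted p = 0.0617), the 1 member with an unadjusted p under 0.05. DESeq2 called 4 of 5 (26.6% of all genes), and without green fruit library 1 edgeR called all 6 (33.1% of all genes). With library totals 72.2% of the calls over all genes were positive, against 32.9% with TMM.

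Marker genes of other tissues also differed between stages and between libraries of a stage, and their part in the results was not tested. Summed FPKM of 80 photosynthesis genes (53 with a mean of at least 1 FPKM, 14 at 0 everywhere) was 6304, 18770 and 19330 in green fruit libraries 1, 2 and 3. It was 1593 to 1992 at discoloration and 176 to 216.5 at initial maturity. For 15 secondary wall genes (11 with a mean of at least 1 FPKM, 1 at 0 everywhere), green fruit library 1 had 135, against 1124 and 1148 in libraries 2 and 3, with 51.9 to 64.8 at discoloration and 8.76 to 10.8 at initial maturity.

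Green fruit library 1, the one with the most storage globulin transcripts, thus held the least photosynthesis and secondary wall transcripts of its stage. Summed FPKM of 20 endosperm and embryo genes (16 with a mean of at least 1 FPKM, 1 at 0 everywhere) was 3346 there, against 1073 and 1045 in libraries 2 and 3. It was 11070 to 11680 at discoloration, and 11140 and 11500 in initial maturity libraries 1 and 3 against 14400 in library 2. Initial maturity library 2 was therefore the highest of its stage for the sum of this list and the lowest for the 6 storage genes, whose FPKM summed to 92009 there, against 152979 and 155403 in libraries 1 and 3. FPKM of all genes also summed higher in library 2 (1302742, against 1066332 and 1065785), so sums of these libraries are not on an equal scale. The list's most abundant gene, late embryogenesis abundant protein 2 (FtPinG0002083100.01), had 3782 FPKM in library 2, against 2351 and 2385. Library 2 held the fewest list genes at 1 FPKM or more (13, against 14 and 15), so the sum does not stand for every gene of the list.

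Vascular genes (31, of which 15 had a mean of at least 1 FPKM and 5 were at 0 everywhere) summed to 102 to 169 FPKM in all libraries. Pollen and flower genes (20, of which 9 had a mean of at least 1 FPKM and 4 were at 0 everywhere) summed to 649 to 977 FPKM in green fruit and to 184 to 255 FPKM later.

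**Figure D4:**
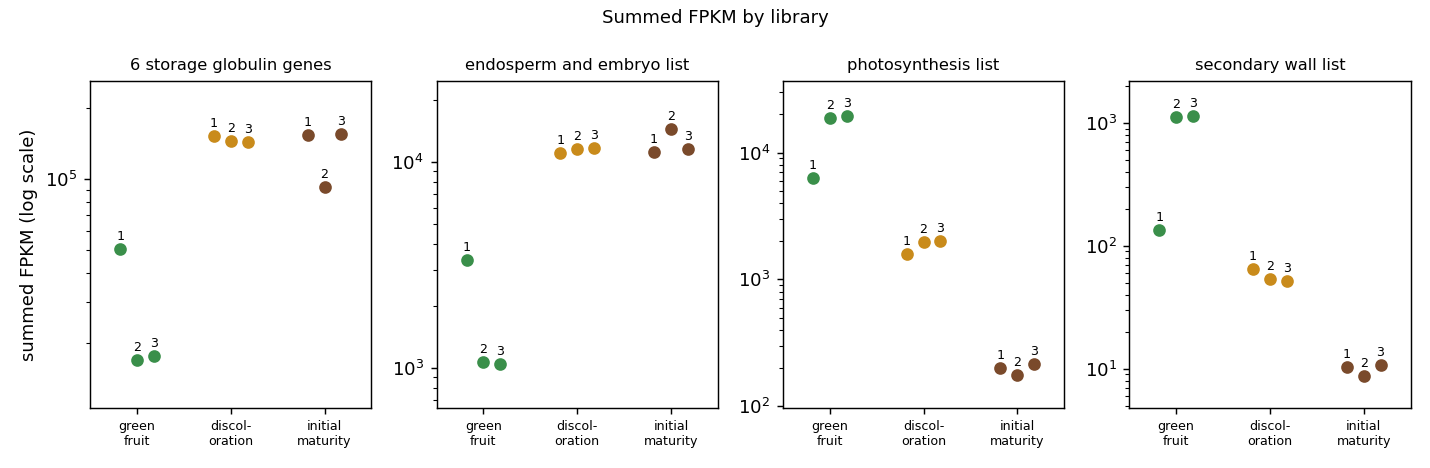
Summed FPKM (log axes) of the 6 storage globulin genes and of the endosperm and embryo, photosynthesis and secondary wall gene lists in each library, by stage; points are libraries numbered by replicate. Green fruit library 1 lies above its stage mates for the storage genes and the endosperm and embryo list, and below them for the photosynthesis (6304 against 18770 and 19330) and secondary wall lists.

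Other storage protein genes, found by name, were few. They were far less abundant, which follows in part from the choice of the members as abundant genes. The 9 genes held 4.53 ± 0.15% of all storage protein FPKM in green fruit, 3.01 ± 0.11% in discoloration seeds and 2.83 ± 0.18% at initial maturity (SD, n = 3), the 6 members holding the rest. Of the 8 tested, 5 were higher at discoloration than in green fruit by edgeR and none was lower (median log2 fold change 2.28), where 19.5% of all genes were higher and 19.9% lower. That split depended on the scaling: library totals gave 4 higher and 2 lower (median 1.39, beside -1.03 over all genes), and limma on log2(FPKM + 1) gave 5 higher and 2 lower. Of all genes 76.0% were called with library totals and 77.9% with limma, and 10.2% of the calls were higher in each. The most abundant was a vicilin-like gene, FtPinG0003333000.01, with a mean of 2619 ± 376 FPKM at discoloration and 642 ± 430 FPKM in green fruit (log2 fold change 2.94, edgeR adjusted p = 0.00408). Next came the 13S globulin 3 copy FtPinG0000287200.01 (3.11, edgeR adjusted p = 0.00765) and the vicilin-like gene FtPinG0008159500.01 (1.84, edgeR adjusted p = 0.0114). FtPinG0004288700.01, also among the 5 called higher, had 3, 1 and 1 counts in the green fruit libraries. It passed the filter on low counts through the later stages, where it is high, so its call adds little.

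Between initial maturity and discoloration, 2 of the 8 were higher, both matching rice glutelin type-A 2, a legumin-type protein: FtPinG0008579200.01 (0.72, edgeR adjusted p = 0.0128) and FtPinG0000417000.01 (1.72, edgeR adjusted p = 0.0306), where 16.0% of all genes were higher. The first call was lost without discoloration library 2 or 3 (adjusted p = 0.0612 and 0.0605), and the second without any 1 of the discoloration libraries or initial maturity library 2 (adjusted p = 0.0805 to 0.11). With library totals 1 of the 8 was called (38.4% of all genes), and with close pairs summed 0 were (6.77% of all genes). FtPinG0008579200.01 had its highest FPKM in green fruit, 113 ± 26.0, with 49.1 ± 2.96 at discoloration and 63.3 ± 5.08 at initial maturity.

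Genes of the regulators, handling and later breakdown of storage proteins were compared next, on lists matched by name. Among regulators, FtPinG0003428600.01 (FUS3), FtPinG0003523300.01 (ABI5) and FtPinG0000367500.01 (ABI3), transcription factors that switch on seed maturation genes in Arabidopsis, were the most abundant. All 3 were higher at discoloration than in green fruit: FUS3 by 1.77 (edgeR adjusted p = 0.0126), ABI5 by 2.66 (adjusted p = 0.00163) and ABI3 by 1.78 (adjusted p = 0.00777). They were the 3 called higher of 9 regulators tested, with 2 lower, beside 19.5% and 19.9% of all genes. At initial maturity 0 of the 9 were higher than at discoloration and 5 were lower, beside 16.0% and 20.4% of all genes. Among the 5 was FUS3 (-1.53, edgeR adjusted p = 0.0259). ABI5 had 129 ± 2.16 FPKM at initial maturity, against 75.3 ± 6.84 FPKM at discoloration, and was not called.

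Green fruit library 1 again stood out for these regulators, with 151 FPKM of FUS3 against 54.0 and 53.02 in libraries 2 and 3. Its FUS3 value lay above that of discoloration library 1 (132 FPKM), so these stages overlapped. The FUS3 call at discoloration over green fruit was lost with library totals (0.87, edgeR adjusted p = 0.0655). Those of ABI5 and ABI3 held (edgeR adjusted p = 0.00179 and 0.0405). The FUS3 call between initial maturity and discoloration held in 4 of 9 fits that each left out 1 library (those without a green fruit library or discoloration library 1). With library totals the list stood at 2 higher and 4 lower at discoloration than in green fruit, with a median of -0.43 beside -1.03 over all genes. Of all genes 76.0% were called then, and 10.2% of those calls were higher.

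Proteins of the protein body membrane and of oil bodies, which fill the same cells, showed the most uniform pattern. All 10 genes tested were higher at discoloration than in green fruit (median log2 fold change 3.05), where 19.5% of all genes were. Library totals gave 9 of them (median 2.14, beside -1.03 over all genes), where 76.0% of all genes were called and 10.2% of those calls were higher. The oleosin gene FtPinG0007882300.01, which codes for an oil body coat protein, had 16340 ± 300.3 FPKM at discoloration and 4060.0 ± 1936 FPKM in green fruit (2.94, edgeR adjusted p = 0.00426). The oleosin 5 genes FtPinG0008057600.01 and FtPinG0006679900.01 were higher by 2.91 and 3.51 (edgeR adjusted p = 0.00374 and 0.00179). Between initial maturity and discoloration 1 of the 10 was higher and none was lower, beside 16.0% and 20.4% of all genes.

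Processing and sorting genes were mixed. Of 43 tested, 8 were higher and 12 lower at discoloration than in green fruit (median log2 fold change -0.14), beside 19.5% and 19.9% of all genes. Library totals turned this to 3 higher and 31 lower (median -1.14, beside -1.03 over all genes). Of all genes 76.0% were called with library totals, and 10.2% of those calls were higher. In the later comparison 1 was higher and 16 lower at initial maturity than at discoloration (median -0.47), beside 16.0% and 20.4% of all genes. The vacuolar processing enzyme gene FtPinG0005279000.01, whose product cuts legumin-type precursors, was higher at discoloration than in green fruit by 2.84 (edgeR adjusted p = 2.3e-04), with 330.5 ± 24.4 and 89.2 ± 22.8 FPKM. It was that 1 gene called higher at initial maturity than at discoloration (0.88, edgeR adjusted p = 0.0425), a call that held in 3 of 9 fits that left out 1 library (those without a green fruit library).

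The most abundant genes of this list included a pair for folding in the endoplasmic reticulum. Calreticulin, FtPinG0002193700.01, a calcium-binding chaperone, was lower at discoloration than in green fruit (-0.78, edgeR adjusted p = 0.0198) and lower again at initial maturity than at discoloration (-1.54, adjusted p = 0.00120). The earlier call was lost without any 1 of the discoloration libraries (adjusted p = 0.0528 to 0.0732), and both were lost with close pairs summed (adjusted p = 0.16 and 0.0672). Protein disulfide-isomerase, FtPinG0002162800.01, which forms disulfide bonds in precursors, had 187 ± 9.58 FPKM at discoloration and 382 ± 183 FPKM in green fruit, and was not called in either interval.

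The mobilisation list, of genes named for proteases, some of them known from storage protein breakdown, had more genes lower than higher late. Of 57 tested, 10 were higher and 15 lower at discoloration than in green fruit (median log2 fold change -0.43), where 19.5% and 19.9% of all genes were. Library totals gave 6 higher and 34 lower (median -1.46, beside -1.03 over all genes), and limma on log2(FPKM + 1) gave 4 higher and 28 lower of 49. Of all genes 76.0% were called with library totals and 77.9% with limma, and 10.2% of the calls were higher in each. In the later comparison 3 were higher and 30 lower at initial maturity than at discoloration (median -1.49), where 16.0% and 20.4% of all genes were. The cysteine proteinase RD21a gene FtPinG0003000200.01 had an initial maturity minus discoloration log2 fold change of -1.04 (edgeR adjusted p = 0.00791) and serine carboxypeptidase-like 18, FtPinG0009038000.01, had one of -2.26 (adjusted p = 0.00439). RD21a proteases are also known from leaf senescence, and some serine carboxypeptidase-like proteins transfer acyl groups instead of cutting protein. A second RD21a gene, FtPinG0005410400.01, had 124 ± 17.7 FPKM at initial maturity and 180 ± 28.3 FPKM at discoloration and was not called.

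**Figure D5:**
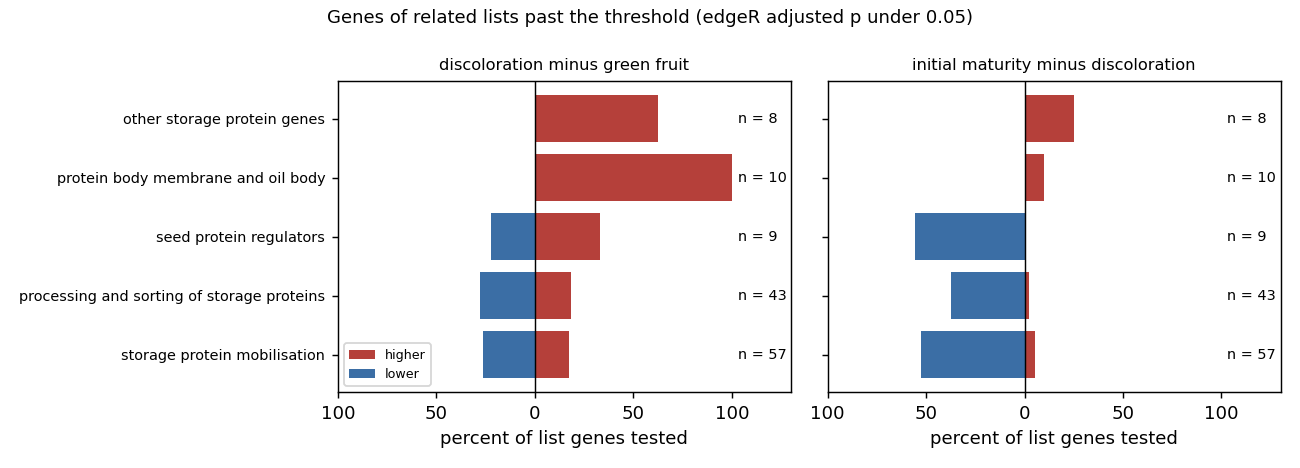
Percent of the tested genes of each related list that were higher (red, right of 0) or lower (blue, left of 0) past the edgeR threshold, for discoloration minus green fruit and initial maturity minus discoloration; n is the number tested. Over all genes, 19.5% were higher and 19.9% lower in the first comparison, and 16.0% and 20.4% in the second. All 10 protein body and oil body genes were higher at discoloration than in green fruit.

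These list counts moved with the libraries used. With the libraries that stood apart left out, discoloration exceeded green fruit for 6 of 8 other storage genes (1 lower), 10 of 10 protein body and oil body genes and 5 of 9 regulators (3 lower). With close pairs summed the counts were 1, 3 and 1 higher (2 regulators lower), where 11.7% of all genes were called and 59.7% of those calls were higher. Without the libraries that stood apart (74.0% of all genes called), processing genes stood at 15 higher and 21 lower of 43. Mobilisation genes stood at 17 higher and 32 lower of 58 there. With close pairs summed (11.7% of all genes called) these lists stood at 3 higher and 1 lower of 44, and 3 higher and 6 lower of 59.

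The members also resembled each other across libraries. Pearson correlations of log2(TMM-scaled CPM + 1) over the 9 libraries ran from 0.944 (vicilin-like with legumin B) to 0.998 (plus-strand 13S globulin 2 with 13S globulin 3). Points share library scaling and the 3 stages, so these values are descriptions. Of 11786 genes with a mean of at least 10 CPM, those most like the mean profile of the members were a 7-deoxyloganetin glucosyltransferase gene (FtPinG0003322600.01, r = 0.998), the 13S globulin 3 copy FtPinG0000287200.01 (r = 0.997) and a U-box protein 4 gene (FtPinG0007190300.01, r = 0.997). A seed biotin-containing protein SBP65 gene (FtPinG0003302500.01) and a clathrin assembly protein gene (FtPinG0008194500.01) followed with r = 0.995 and 0.994.

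Likeness in r is of shape on the TMM-scaled log axis, and not of size or of shape in FPKM. TMM factors, by which CPM is divided, were 1.5 to 1.83 in green fruit libraries and 0.635 to 0.885 later. That raises every gene late relative to green fruit. The clathrin assembly protein gene had 18.7 ± 3.77, 19.4 ± 0.81 and 16.0 ± 1.65 FPKM over the 3 stages. SBP65, a late seed protein in pea, had 109 ± 135, 2134 ± 280.3 and 2664 ± 298 FPKM over the 3 stages, whereas the glucosyltransferase gene had 55.1 ± 16.7, 77.4 ± 3.74 and 64.9 ± 9.11 FPKM.

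Single members had different nearest genes. Among them the plus-strand 13S globulin 2 and 13S globulin 3 genes were each other's nearest. Nearest to the 11S globulin 2 gene was the chaperone gene ClpB1 (FtPinG0004507700.01, r = 0.998), which had its highest FPKM at discoloration (97.2 ± 3.18, with 14.4 ± 10.2 in green fruit and 60.6 ± 4.67 at initial maturity). The vicilin-like gene lay nearest to growth-regulating factor 5 (FtPinG0004738700.01, r = 0.999), with 1.86 ± 1.76, 14.8 ± 2.01 and 21.2 ± 3.75 FPKM over the 3 stages. Legumin B lay nearest to transcription factor bHLH96 (FtPinG0008151300.01, r = 0.994) and the minus-strand 13S globulin 2 gene to UDP-glycosyltransferase 74F2 (FtPinG0007770500.01, r = 0.996). In FPKM bHLH96 moved little, with 49.8 ± 14.4, 59.0 ± 3.69 and 54.4 ± 14.7 over the 3 stages. The 74F2 gene had 4.25 ± 5.33, 18.1 ± 0.43 and 14.7 ± 3.24 FPKM.

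Genes around the members were then listed by position. Within 50000 bases of a member's start there were 3 to 23 other genes, and none overlapped a member, so reads of the opposite strand at the same place did not enter their counts from an annotated gene. Abundant neighbours were few: the 13S globulin 3 copy FtPinG0000287200.01 beside the 13S globulin 3 gene and the late embryogenesis abundant protein D-34 gene FtPinG0001721200.01 beside the vicilin-like gene, with mean FPKM of 921 and 1974 over the 9 libraries. The other neighbours averaged at most 209 FPKM.

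Among the neighbours with a name and a mean above 1 FPKM, the 13S globulin 3 gene also had NADH dehydrogenase 1 beta subcomplex subunit 2, synaptotagmin-4 and a blue copper protein gene. Around the plus-strand 13S globulin 2 gene lay casein kinase I, HERC1 and RIC5 genes, and around the minus-strand gene COX assembly protein 2 and HERC1. Around the 11S globulin 2 gene lay fructokinase-7, a zinc protease, U-box protein 2 and DNA polymerase kappa. Legumin B had actin-depolymerizing factor, ERF098 and patellin-4, and the vicilin-like gene mitochondrial ribosomal protein L24. Of the neighbours tested, 4 of 6 were higher at discoloration than in green fruit beside legumin B, 3 of 8 beside the 11S globulin 2 gene, 2 of 7 and 0 of 3 beside the plus-strand and minus-strand 13S globulin 2 genes, 2 of 9 beside the 13S globulin 3 gene and 1 of 9 beside the vicilin-like gene, where 19.5% of all genes were. Lower at discoloration were 2 beside the 13S globulin 3 gene, 2 beside the vicilin-like gene and 1 beside the plus-strand 13S globulin 2 gene.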

How the data were processed

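Per the labels, total RNA of seeds was extracted with Trizol and sequenced from Illumina TruSeq libraries, a kit that does not mark strand. The authors deposited read counts per gene and FPKM values, per the file headers; Bowtie2 2.0.6 and TopHat2 2.0.12 are named in the submitters' processing notes, while the counting program, build and annotation were not given in the sources used here. Log2 ratios and adjusted p-values in the authors' deposited table come with no named test; that table also holds the authors' scaled mean count signal per stage, not used here. FPKM carries no correction for composition, so a large share of a library in few genes lowers the FPKM of all others.

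Counts were fitted with edgeR 4.0.16 in R 4.3.3 (TMM, filterByExpr with a minimum count of 10, glmQLFit and glmQLFTest without a replicate term). The filter left 23631 of 33931 genes. Fits were tested on simulated counts with known changes, set equally up and down. No library was made to stand apart and no large shift in library makeup was set, so the simulation does not cover these features of the data. Alternatives used DESeq2 1.42.0, limma 3.58.1 on log2(FPKM + 1) or log2(FPKM + 0.1), other scalings, no filter, a replicate block, only the stages compared, and fits leaving out libraries. Depth was 21585045 to 26777643 counts per library.

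The members and gene lists were chosen with earlier results of these data known. All members are named, with the 3 genes of highest mean FPKM in each list, the 5 genes most like the mean profile, the nearest gene of each member and at most 5 neighbours; other genes named were chosen after their values were seen. Permutation tests planned for the summed share and the makeup were not used, since the members were chosen with results known. The 9 columns of each variant table that match no sample here were not used. No sequence was printed, as no reference was used.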

Additional observations from a re-analysis of the deposited data

Results flagged for a closer look

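Of the 8 other storage genes tested, 2 differed between the intervals by edgeR, where 20.0% of all genes did. For the vicilin-like gene FtPinG0003333000.01 the change from discoloration to initial maturity minus that from green fruit to discoloration was -2.97 on the log2 scale (SE 0.91, edgeR adjusted p = 0.0473), with log2 fold changes of -0.03 in the later and 2.94 in the earlier interval. It ran from -3.86 to -2.65 when 1 library was left out and passed in 1 of those 9 fits (without green fruit library 1).

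With close pairs summed 0 of the 8 were called, where 0.586% of all genes were. For the gene FtPinG0004288700.01, which matches 11S globulin 2 as a member does but averaged 11.3 FPKM, the same difference was -7.06 (SE 1.11, edgeR adjusted p = 0.00328), with log2 fold changes of 1.38 in the later and 8.44 in the earlier interval. Its green fruit libraries held 3, 1 and 1 counts, so it passed the filter through the later stages, and the size of both this difference and the earlier fold change depends on the prior count of the fit and is no measured fold. It was called in all 9 fits that left out 1 library (-7.80 to -6.50) and was lost with close pairs summed (-6.86, adjusted p = 0.0796). Its FPKM was 0.0997, 0.0301 and 0.0374 in the green fruit libraries, 4.42, 15.2 and 13.7 at discoloration, and 29.2, 8.18 and 31.1 at initial maturity.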

How the results depend on the processing

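The count of members higher at discoloration than in green fruit, 5, was 3 with only the 2 stages compared (37.7% of all genes called, 39.5% in the fit of 3 stages) and 0 with close pairs summed (11.7%). When 1 library was left out it was 2 to 6 (27.7% to 51.4% of all genes). Shares of all genes here count calls in either direction. The count between initial maturity and discoloration, 0, was 1 with only the 2 stages compared (47.2% of all genes, against 36.4%). It was 6 with the libraries standing apart left out (67.6%) and 0 to 1 when 1 library was left out (21.9% to 50.4%). The count between initial maturity and green fruit, 6 (60.8% of all genes), was 4 with only the 2 stages compared (55.7%). It was 5 with library totals (82.6%) and both limma fits (84.1% and 84.0%), and 5 of 5 with DESeq2 (62.2%). With close pairs summed it was 0 (37.4%), and when 1 library was left out 4 to 6 (52.1% to 68.9%). The count for the difference between the intervals, 0, was 1 with library totals (28.1% of all genes), 4 with DESeq2 (26.6%) and 1 with limma on log2(FPKM + 1) (33.4%). It was 6 with the libraries standing apart left out (60.6%) and 0 to 6 when 1 library was left out (8.14% to 33.1%).

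The summed share of counts was 19.7 percentage points higher at discoloration than in green fruit (18.7 to 21.6 when 1 library was left out) and 11.7 points higher as a share of summed FPKM. Between initial maturity and discoloration it was -2.43 points (-4.33 to 1.18 when 1 library was left out). Signs turned only between initial maturity and discoloration, in values past no threshold. For the plus-strand 13S globulin 2 gene, legumin B and the minus-strand 13S globulin 2 gene these were -0.137, -0.136 and -0.0324 with library totals and -0.201, -0.235 and -0.069 with limma on log2(FPKM + 1) or log2(FPKM + 0.1), and legumin B was -0.0232 with close pairs summed. The cause was not tested.

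DESeq2 gave no adjusted p for the minus-strand 13S globulin 2 gene. With the replicate number as a block, 4 members were higher at discoloration than in green fruit (35.9% of all genes called in either direction), the plus-strand 13S globulin 2 gene having an adjusted p of 0.0715. The labels say that the stages came from the same plants but not that numbers name plants. Of same-numbered pairs of libraries, 3 of 9 had a correlation of deviations above 0.1 (range -0.151 to 0.186). Among the libraries, 5 of 9 correlated best with a library of their own number. With 3 libraries in each stage, and a library standing apart from a close pair, this check cannot tell whether the numbers pair the libraries. The main fit had no replicate term, so it treated the libraries as independent.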

Other observations

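Sites of the deposited SNP table were placed in the members by position, and the table itself credited none of them to the gene that held it. Calls were counted as non-reference if heterozygous or homozygous for the other allele, and missing calls were not told apart from reference calls. Within the vicilin-like gene FtPinG0001724500.01 lay 4 sites, where 5 of 36 calls in the 9 libraries were non-reference. The 13S globulin 3 gene FtPinG0000292500.01 held 1 site, with 7 of 9 calls non-reference, and the legumin B gene FtPinG0004859600.01 held 1 site, with 0 of 9. No site was listed within the 11S globulin 2 gene or either 13S globulin 2 gene, and no InDel site within any of the 6. The meaning of the number after each call is not stated, and the calls were not filtered on it.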
